A study of Mus musculus with 43 samples.

Results

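The comparison set out here was that of epididymal white fat from male mice given SZ-A at 600 mg/kg/day on a high-fat diet with 60% fat against fat from male mice given the same diet alone. SZ-A stands for Ramulus Mori (Sangzhi) alkaloids, a preparation of alkaloids from mulberry twigs. RNA of whole tissue was sequenced, and the analysis used 18 of the 43 libraries of the series, 10 of the high-fat group and 8 of the SZ-A 600 group. They were chosen by their diet and dose labels. Library 6 of the SZ-A 600 group was left out because it carried RNA of ciliated epithelium, with 433 CPM (counts scaled to library size) of Foxj1, the ciliary master regulator, against at most 0.957 CPM in the other 18. Mice on a standard diet with 10% fat and on the high-fat diet with SZ-A at 200 or 400 mg/kg/day served only as points of reference. Both groups compared carried the high-fat diet, and the labels give neither the age of the mice nor the hour of tissue collection.

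White fat stores triglyceride in adipocytes, and in obesity it gains macrophages and fibrous collagen and shows stress of the endoplasmic reticulum (ER), the compartment where secreted proteins fold. Fat cells also hold a circadian clock, in which Arntl (BMAL1) and its partners Clock and Npas2 switch on genes of the Per, Cry and REV-ERB (Nr1d) families that feed back on them, while the PAR bZIP factors Dbp, Tef and Hlf pass the rhythm on to other genes. The alkaloids of this plant are known chiefly as inhibitors of alpha-glucosidases, enzymes that cut glucose from sugar chains.

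Each of the 18 libraries held 33.4 M to 44.3 M counts. Of 17618 genes tested, 2446 were higher with SZ-A 600 (13.9%) and 2647 were lower (15%), 5093 in all (28.9%), at an adjusted p under 0.05, by edgeR's quasi-likelihood test with library order as a term. Genes past this threshold are described below as having risen or fallen. Counts over gene lists are to be read against these shares. The median log2 fold change over all genes tested was 0.02. By at least 2-fold, 555 genes rose and 775 fell. Without SZ-A 600 library 3 the number that rose was 1556, and without library 5 it was 1564. Leaving out high-fat library 8 gave 3620 that rose and 3767 that fell, and list counts without that library are to be read against these. Levels are given as normalised CPM, as the lowest, median and highest library of each group. The labels do not say that each library came from its own animal, and the p-values then cover only how libraries of a group vary.

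The high-fat libraries did not form a uniform group. The summed level of 20 macrophage and monocyte markers was 8592 to 14400 CPM in high-fat libraries 1 to 7, but 1048 in library 8, 3920 in library 9 and 1475 in library 10. In the SZ-A 600 libraries the same sum ran from 1604 to 7151 CPM, with a median of 2925. The summed level of 25 mature adipocyte markers ran the other way, with 30298 to 40175 CPM in high-fat libraries 1 to 7, 57298 to 85688 in libraries 8 to 10, and 51714 to 70747 with SZ-A 600. High-fat libraries 8, 9 and 10 thus lay among or beyond the treated libraries on both sums. Nothing in the labels sets these 3 libraries apart from the other 7, and why they differ was not tested. In such bulk tissue, fewer cells of a type and less RNA per cell cannot be told apart.

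**Figure D1:**
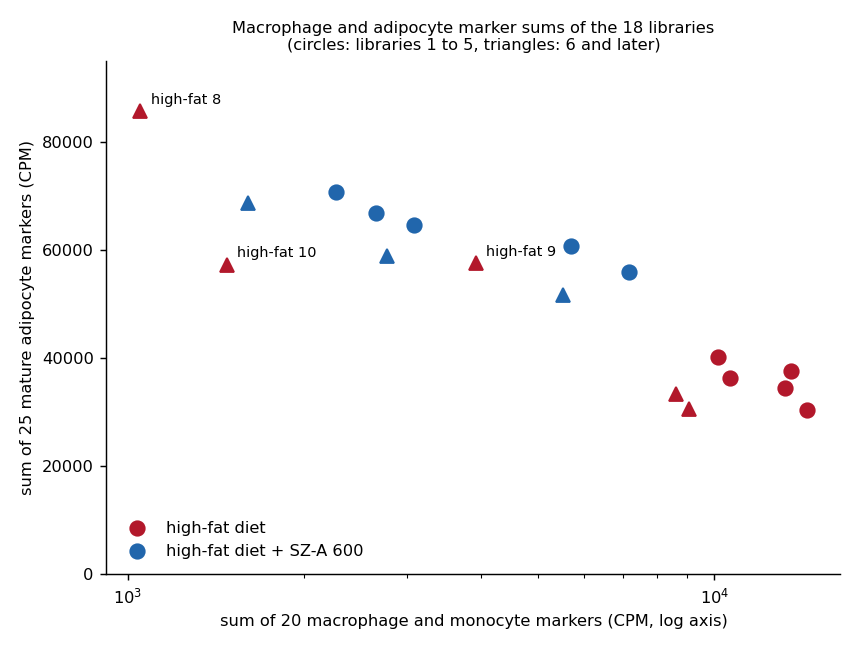
Summed macrophage and monocyte markers (x, CPM, log axis) against summed mature adipocyte markers (y, CPM), 1 point per library of the 18 compared. High-fat libraries 8, 9 and 10, with macrophage sums of 1048, 3920 and 1475 CPM, lie apart from the other 7 high-fat libraries.

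All 3 of these libraries belong to the later library numbers. The labels do not say whether numbers 1 to 5 and later numbers mark a batch. High-fat libraries 6 and 7 are also of the later numbers but lay near libraries 1 to 5. They held 9065 and 8592 CPM of macrophage markers and 30628 and 33319 CPM of adipocyte markers. The later high-fat set thus holds both kinds of library. Among libraries 1 to 5 of each group, 7446 of 16978 genes differed (43.9%), 3732 higher (22%) and 3714 lower (21.9%). Among the later libraries, 5 of the high-fat group and 3 of the SZ-A 600 group, none of 19000 genes passed by edgeR's test (0%), with 1124 at an unadjusted p under 0.05 against 950 if nothing differed and a lowest adjusted p of 0.299. Of the 7422 genes that differed in the first set and were tested in the second, 6219 had the same sign there (83.8%) and 664 also had an unadjusted p under 0.05 (8.95%), while 72.3% of all 16836 genes tested in both had the same sign. The median size of their log2 fold change was 0.80 in the first set and 0.27 in the second. In the test of the difference between the sets themselves, edgeR called no gene, with 1806 at an unadjusted p under 0.05 against 881 if nothing differed, and DESeq2 called 7.

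A pair of further fits, both chosen after the marker sums had been seen, are given beside many of the results below. Without high-fat libraries 8, 9 and 10, 4818 genes were higher (27.6%) and 4628 lower (26.5%). With the level of the macrophage list as a term beside library order, 747 were higher (4.24%) and 826 lower (4.69%), 8.93% in all, and of the 5093 genes that differed 1209 still did, in the same direction. That term takes out whatever moves with macrophage RNA in either group, an effect of the treatment on it included. The term is the mean level of the macrophage and monocyte list, so for members of that list a smaller or turned change is partly built in. Libraries 8, 9 and 10 were set apart by macrophage and adipocyte markers, so the fit without them is no separate evidence on those markers. List counts in both fits are to be read against the shares just given.

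The circadian clock held the genes with the lowest p-values, Dbp and Tef. Of the 7 clock output genes tested, 4 rose (Dbp, Tef, Hlf and Ciart), 1 fell (Nfil3), and the repressors Bhlhe40 (-0.41, adjusted p = 0.126) and Bhlhe41 (0.12, adjusted p = 0.706) did not pass. The list median was 1.15 on the log2 scale. Of the 16 clock activators and repressors tested, 6 rose, among them Per3, Nr1d1, Nr1d2 and Cry2, and 2 fell (Arntl and Npas2). In all, 57 of the 17618 genes had groups that did not overlap (0.324%), 23 higher (0.131%) and 34 lower (0.193%), and 7 of these 57 were among the 23 clock genes, namely Dbp, Tef, Hlf, Nr1d2, Arntl, Npas2 and Nfil3.

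Dbp, the PAR bZIP factor with the widest known daily swing, was at 5.22, 11.7 and 14.7 CPM in the high-fat libraries and at 31.6, 39.9 and 56.3 with SZ-A 600. Every treated library stood above every high-fat library, a log2 fold change of 1.89 ± 0.17 (SE, n = 10 and 8, adjusted p = 1.69e-05). Tef, its relative, was at 66.1, 81.1 and 124 CPM against 153, 172 and 232, with groups apart and a change of 1.15 ± 0.10 (adjusted p = 1.69e-05). Hlf, the third of the family, was at 1.98, 3.90 and 8.04 CPM against 9.74, 14.9 and 21.5, again with no overlap, and rose by 2.02 ± 0.25 (adjusted p = 0.000204). Its 2 highest high-fat values were in libraries 8 to 10, as were the 3 highest of Tef, whereas the 2 lowest high-fat values of Dbp were in libraries 8 and 10.

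Nfil3, a repressor that binds the same DNA element as the PAR bZIP factors, moved the opposite way. It was at 7.47, 11.6 and 20.9 CPM in the high-fat libraries and at 2.42, 3.90 and 5.88 with SZ-A 600, and fell by 1.74 ± 0.21 on the log2 scale (adjusted p = 0.000142) with no overlap. Arntl, the core activator, was at 11.1, 24.5 and 27.9 CPM against 4.32, 6.86 and 10.0. The groups did not overlap, though high-fat library 8, at 11.1 CPM, lay close to the highest treated library, and Arntl fell by 1.63 ± 0.18 (adjusted p = 8.21e-05). Npas2, which can stand in for Clock, was at 4.52, 9.24 and 12.6 CPM against 0.998, 1.63 and 4.37, the groups clearing each other narrowly, and fell by 1.87 ± 0.33 (adjusted p = 0.00151).

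The REV-ERB receptors, which repress Arntl, both rose. Nr1d1 went from 47.7, 69.5 and 110 CPM to 91.3, 148 and 193, a change of 1.09 ± 0.14 (adjusted p = 0.000264), with 7 of 8 treated libraries above the highest high-fat library. Nr1d2 was at 38.0, 50.9 and 60.0 CPM against 75.8, 83.7 and 112, with groups apart and a change of 0.90 ± 0.11 (adjusted p = 0.000155). Among the negative limb, Per3 rose by 1.41 ± 0.16 (adjusted p = 0.000111) and Cry2 by 0.78 ± 0.14 (adjusted p = 0.00149). Clock (0.06, adjusted p = 0.648), Per1 (0.33, adjusted p = 0.319), Per2 (0.70, adjusted p = 0.0545) and Cry1 (0.37, adjusted p = 0.124) did not pass.

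**Figure D2:**
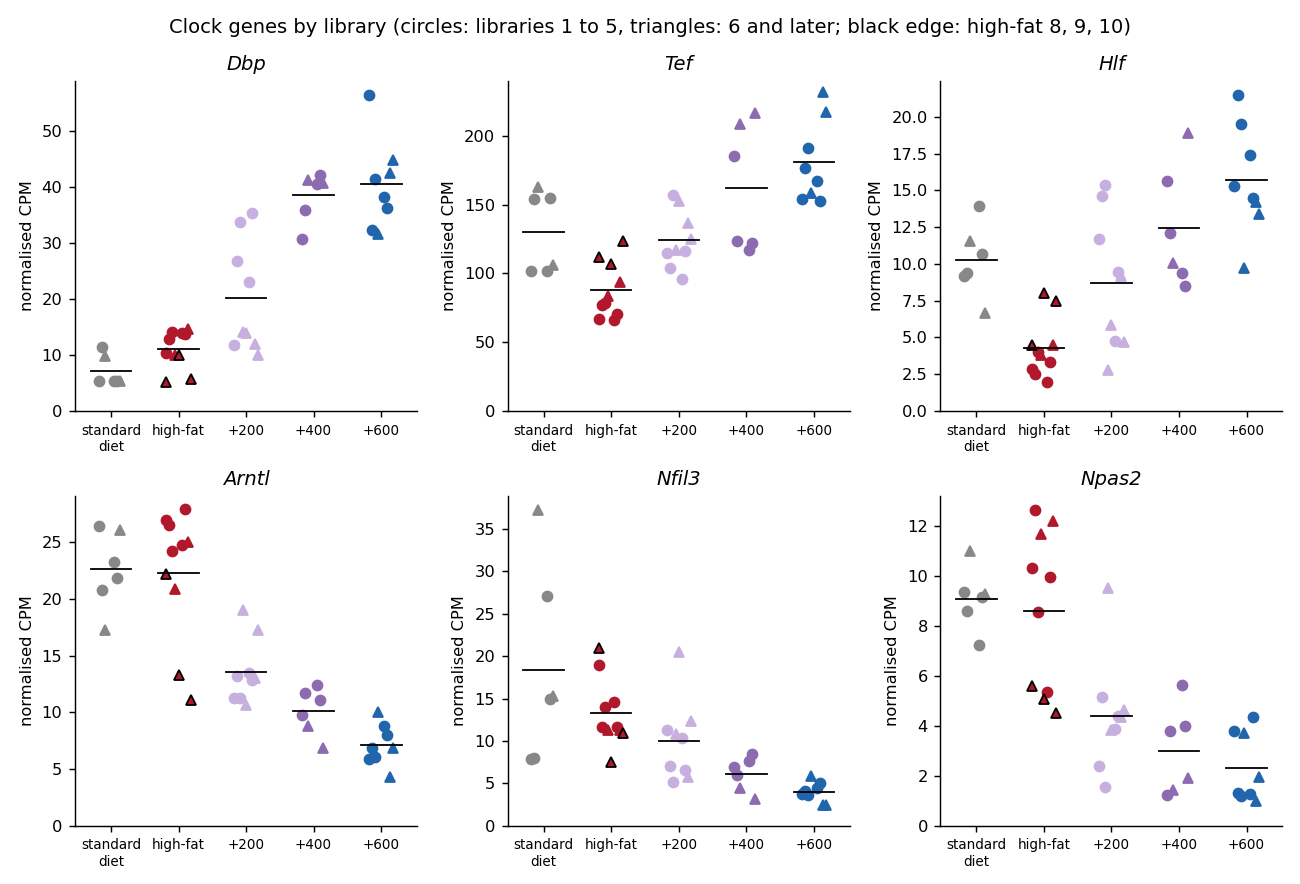
Level of 6 clock genes in normalised CPM (y) by group (x: standard diet, high-fat diet, and high-fat diet with SZ-A at 200, 400 and 600 mg/kg/day), 1 point per library with the group mean as a line. The Dbp values with SZ-A 600 run from 31.6 to 56.3 CPM, all above the 10 high-fat libraries, and those of Arntl from 4.32 to 10.0, all below them.

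The log2 fold change of Dbp was 1.68 in the first set of libraries and 2.14 in the second, that of Arntl -1.84 and -1.38, and that of Nfil3 -1.72 and -1.79, though none of the 3 passed in the second set. With the macrophage term Dbp was at 2.30 (adjusted p = 3.55e-07), Tef at 0.90 (adjusted p = 2e-06), Arntl at -1.36 (adjusted p = 0.000205) and Nfil3 at -1.78 (adjusted p = 0.000342). The median of the output genes was 1.26 in the first set, 0.58 in the second and 0.90 with that term, and the median of the activators and repressors, 0.35 in all libraries, was 0.64, 0.02 and 0.12. Over both clock lists, 11 genes rose and 3 fell with that term. Without high-fat libraries 8, 9 and 10, 10 of the 16 activators and repressors rose and 3 fell. Ciart, a repressor of the BMAL1 complex, was at 2.12 in the first set and 0.58 in the second.

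Set beside the other groups, the clock genes differed in where the standard diet stood. Mean Dbp was 7.14 CPM on the standard diet, 11.1 on the high-fat diet, 20.1 with SZ-A 200, 38.5 with SZ-A 400 and 40.4 with SZ-A 600. Mean Arntl was 22.6 CPM on the standard diet and 22.3 on the high-fat diet, and at 13.6, 10.1 and 7.10 with the 3 doses. Hlf, in contrast, was at 10.2 CPM on the standard diet, 4.30 on the high-fat diet and 15.7 with SZ-A 600, and Per3 at 84.7, 34.2 and 73.7. No difference from the standard diet was tested.

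BMAL1 complexes are known to bind the E-box CACGTG, and PAR bZIP factors and NFIL3 the D-box TTATGTAA or TTACGTAA. The promoters shown are those of risen clock genes whose window holds such letters, and they were chosen for holding them. The sequences are the 250 bases before each gene start, from RefSeq (GRCm38.p6), 5′ to 3′ along the gene's strand, with the E-box in capitals for Tef and Ciart and the D-box in capitals for Per3.

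Tef (chr15:81802423-81802672, plus strand): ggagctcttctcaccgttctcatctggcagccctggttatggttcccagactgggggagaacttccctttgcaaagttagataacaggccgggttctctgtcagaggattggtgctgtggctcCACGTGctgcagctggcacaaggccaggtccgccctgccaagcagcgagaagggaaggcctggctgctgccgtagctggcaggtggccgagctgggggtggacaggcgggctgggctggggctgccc

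Ciart (chr3:95882229-95882478, minus strand): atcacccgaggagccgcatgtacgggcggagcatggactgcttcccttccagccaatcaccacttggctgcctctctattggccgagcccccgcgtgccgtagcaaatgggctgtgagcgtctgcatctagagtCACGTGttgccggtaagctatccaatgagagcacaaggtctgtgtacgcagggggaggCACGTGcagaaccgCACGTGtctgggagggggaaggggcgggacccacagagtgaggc

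Per3 (chr4:151044666-151044915, minus strand): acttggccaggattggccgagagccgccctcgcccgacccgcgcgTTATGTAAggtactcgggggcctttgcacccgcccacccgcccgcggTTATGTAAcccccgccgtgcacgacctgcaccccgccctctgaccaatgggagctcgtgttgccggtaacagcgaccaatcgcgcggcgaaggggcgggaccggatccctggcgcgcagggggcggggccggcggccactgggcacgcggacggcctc

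Of 12076 genes tested with a promoter in that table, 9.42% held an E-box and 0.82% a D-box on either strand. More than 1 promoter was given for 2414 of them, and a gene was counted if any of its promoters held the letters. Among the 6 clock output genes with a promoter 3 held an E-box, 2 of them among the 5 that passed the test, and none held a D-box. Among the 12 activators and repressors 2 held an E-box, Per1 and Cry1, neither of which passed, and 1 held a D-box, which was Per3 with 2 copies. Over all genes the E-box lay in 8.65% of those that rose and 11.1% of those that fell. The window of Dbp held no CACGTG. A match describes these letters and no binding was measured.

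Among ER chaperones, most of the genes that passed fell. Of 28 ER chaperones and folding enzymes tested, 14 fell and 1 (Derl1, a channel component for disposal of misfolded proteins) rose, with a list median of -0.34 on the log2 scale against 0.02 over all genes. Hspa5 (BiP), the chief chaperone of the ER lumen, was at 401, 624 and 907 CPM in the high-fat libraries and at 227, 306 and 361 with SZ-A 600. The groups did not overlap, and Hspa5 fell by 1.01 ± 0.12 on the log2 scale (adjusted p = 0.000111), to a mean of 304 CPM from 611. Creld2, a secreted stress protein of the ER, was at 28.1, 40.9 and 55.4 CPM against 17.5, 20.2 and 27.8, with no overlap, and fell by 0.98 ± 0.11 (adjusted p = 0.000112). Manf, a stress factor secreted when ER calcium is low, fell by 0.96 ± 0.11 (adjusted p = 9.9e-05), with 7 of 8 treated libraries below the lowest high-fat library.

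The other members that fell did so by less or with more overlap. Sdf2l1, a cochaperone of BiP, fell by 1.30 ± 0.26 (adjusted p = 0.00298), Calr (calreticulin) by 0.75 ± 0.13 (adjusted p = 0.00142), and Dnajb11, a J-protein partner of BiP, by 0.67 ± 0.10 (adjusted p = 0.000664). Hyou1, its exchange factor, fell by 0.62 ± 0.12 (adjusted p = 0.00226), Hsp90b1 (GRP94) by 0.44 ± 0.10 (adjusted p = 0.00619) and Pdia6, a disulfide isomerase, by 0.39 ± 0.07 (adjusted p = 0.00198). Canx, the membrane-bound lectin chaperone, was at -0.33 (adjusted p = 0.0507) and Herpud1, of the disposal pathway, at -0.22 (adjusted p = 0.14). The list median was -0.40 in the first set, -0.35 in the second and -0.24 with the macrophage term, where 10 of the 28 fell and none rose. Hsp90b1 (-0.25, adjusted p = 0.0953) and Derl1 (0.19, adjusted p = 0.168) did not pass with that term. In the fit without library order, 9 of the 28 fell and 1 rose, where 1322 of all genes fell and 831 rose.

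Promoters of 5 of these genes are shown because they share a letter pattern that is rare elsewhere, the ER stress response element, made of CCAAT and CCACG with 9 free bases between them. The whole element is in capitals on whichever strand it lies. They are the 250 bases before the gene start, from RefSeq (GRCm38.p6).

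Hspa5 (chr2:34771840-34772089, plus strand): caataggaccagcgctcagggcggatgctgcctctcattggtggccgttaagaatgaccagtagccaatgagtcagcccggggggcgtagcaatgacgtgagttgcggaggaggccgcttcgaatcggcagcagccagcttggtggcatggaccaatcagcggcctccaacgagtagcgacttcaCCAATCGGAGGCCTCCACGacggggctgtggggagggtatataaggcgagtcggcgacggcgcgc

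Creld2 (chr15:88819396-88819645, plus strand): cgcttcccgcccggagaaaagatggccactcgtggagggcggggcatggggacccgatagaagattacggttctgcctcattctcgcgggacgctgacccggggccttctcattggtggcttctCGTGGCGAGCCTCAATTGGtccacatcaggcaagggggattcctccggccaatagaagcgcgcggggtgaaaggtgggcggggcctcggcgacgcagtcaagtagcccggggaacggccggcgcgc

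Hsp90b1 (chr10:86705445-86705694, minus strand): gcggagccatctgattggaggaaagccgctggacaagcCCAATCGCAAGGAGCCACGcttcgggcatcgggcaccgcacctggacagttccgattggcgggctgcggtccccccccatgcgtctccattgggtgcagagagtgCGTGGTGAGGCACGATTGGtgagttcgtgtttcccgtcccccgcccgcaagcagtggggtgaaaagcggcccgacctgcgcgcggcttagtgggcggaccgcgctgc

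Calr (chr8:84846932-84847181, minus strand): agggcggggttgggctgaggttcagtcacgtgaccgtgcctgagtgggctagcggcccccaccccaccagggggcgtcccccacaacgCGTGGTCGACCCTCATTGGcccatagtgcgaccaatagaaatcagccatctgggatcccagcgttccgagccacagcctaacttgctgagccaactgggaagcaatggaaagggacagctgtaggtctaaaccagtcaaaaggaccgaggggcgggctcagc

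Pdia6 (chr12:17266339-17266588, plus strand): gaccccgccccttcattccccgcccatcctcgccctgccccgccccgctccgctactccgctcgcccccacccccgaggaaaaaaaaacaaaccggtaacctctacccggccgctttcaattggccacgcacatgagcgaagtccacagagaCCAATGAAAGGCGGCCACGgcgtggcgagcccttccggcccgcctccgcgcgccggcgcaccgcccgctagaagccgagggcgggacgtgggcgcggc

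The element was found at 21 of the 12076 genes with a promoter (0.174%), and at 10 of the 24 ER chaperones with a promoter (41.7%). Among those that passed the test it was in 5 of 12, and Hsp90b1 held 2 copies. Over all genes it lay in 0.341% of those that fell and 0.174% of those that rose. The element is a mark of the family whether its members moved or not, and no binding was measured.

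Stress genes outside this family moved less evenly. Of 26 stress sensors and ATF4 targets tested, 6 fell and 1 rose, with a list median of -0.11, where 15% of all genes fell and 13.9% rose. Ddit3 (CHOP), the stress-induced transcription factor, was at 14.7, 18.2 and 25.7 CPM against 12.2, 13.3 and 19.2 and fell by 0.47 ± 0.12 (adjusted p = 0.0105). Atf3 fell by 1.10 ± 0.31 (adjusted p = 0.0145), from a median of 224 CPM to 80.8. Slc7a5, an amino acid carrier, and Mthfd2, a mitochondrial folate enzyme, fell by 1.08 ± 0.27 (adjusted p = 0.0096) and 0.96 ± 0.22 (adjusted p = 0.00545). The list had no steady direction, with a median of 0.13 in the first set and -0.38 in the second. Without high-fat libraries 8, 9 and 10 its median was 0.16, with 10 genes that rose and 8 that fell. A total of 3 fell and none rose with the macrophage term, where Atf3 (-0.34, adjusted p = 0.219), Slc7a5 (-0.81, adjusted p = 0.0879) and Mthfd2 (-0.50, adjusted p = 0.0776) did not pass.

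Of 16 heat shock and cytosolic chaperone genes, 7 fell and 1 rose, and 4 fell without high-fat library 4 or without SZ-A 600 library 3, 5, 7, 8 or 9. Over all genes those fits gave, in that order, 2025, 2099, 2121, 2159, 3179 and 2338 that fell, against 2647 in the main fit. Hsph1 (HSP110) was at 51.4, 70.7 and 175 CPM against 25.0, 36.2 and 45.3, with groups apart, and fell by 1.17 ± 0.20 (adjusted p = 0.00133). Hspa8 (HSC70), an abundant constitutive chaperone, was at 933, 1510 and 1986 CPM against 581, 860 and 1239 and fell by 0.77 ± 0.13 (adjusted p = 0.00127). The inducible Hspa1a was at 4.42, 13.9 and 138 CPM against 3.14, 4.70 and 7.18. Its 2 highest high-fat values were in libraries 8 and 10, and its call (-1.95 ± 0.68, adjusted p = 0.0395) was lost without any 1 of 8 libraries. Hspa1a and Hspa1b are near copies whose reads can be shared. Hspb8, a small heat shock protein, was the 1 that rose, by 0.78 ± 0.26 (adjusted p = 0.0351), a call lost without any 1 of 10 libraries and with the macrophage term (0.15, adjusted p = 0.42). The list median was -0.27, with -0.09 in the first set and -0.43 in the second. In the fit with the macrophage term 10 of the 16 fell and none rose, and without high-fat libraries 8, 9 and 10, 8 fell and 3 rose.

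Since SZ-A is known as an inhibitor of alpha-glucosidases, genes of that kind were read as a group of their own. Of 14 genes of ER glycan trimming and alpha-glucosidases tested, 3 rose and 5 fell, where 13.9% of all genes rose and 15% fell. Mogs, the ER glucosidase that removes the first glucose, was at 17.3, 38.6 and 44.4 CPM against 16.1, 21.0 and 24.5 and fell by 0.75 ± 0.13 (adjusted p = 0.00131). Ganc, a neutral alpha-glucosidase, went the other way, from 23.6, 29.9 and 61.7 CPM to 50.3, 60.0 and 67.5, and rose by 0.81 ± 0.16 (adjusted p = 0.00262). Of the glycoprotein folding sensors, Uggt1 fell by 0.49 ± 0.13 (adjusted p = 0.0096) and Uggt2 rose by 0.63 ± 0.14 (adjusted p = 0.00561). The list median was -0.26 in the first set and -0.12 in the second, and without high-fat library 8 the number that fell was 8. Without all 3 of high-fat libraries 8, 9 and 10, 3 rose and 8 fell. Adding the macrophage term left 1 that rose and 1 that fell, with a median of -0.07, and Uggt1 (-0.25, adjusted p = 0.169) and Uggt2 (0.50, adjusted p = 0.074) did not pass.

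**Figure D3:**
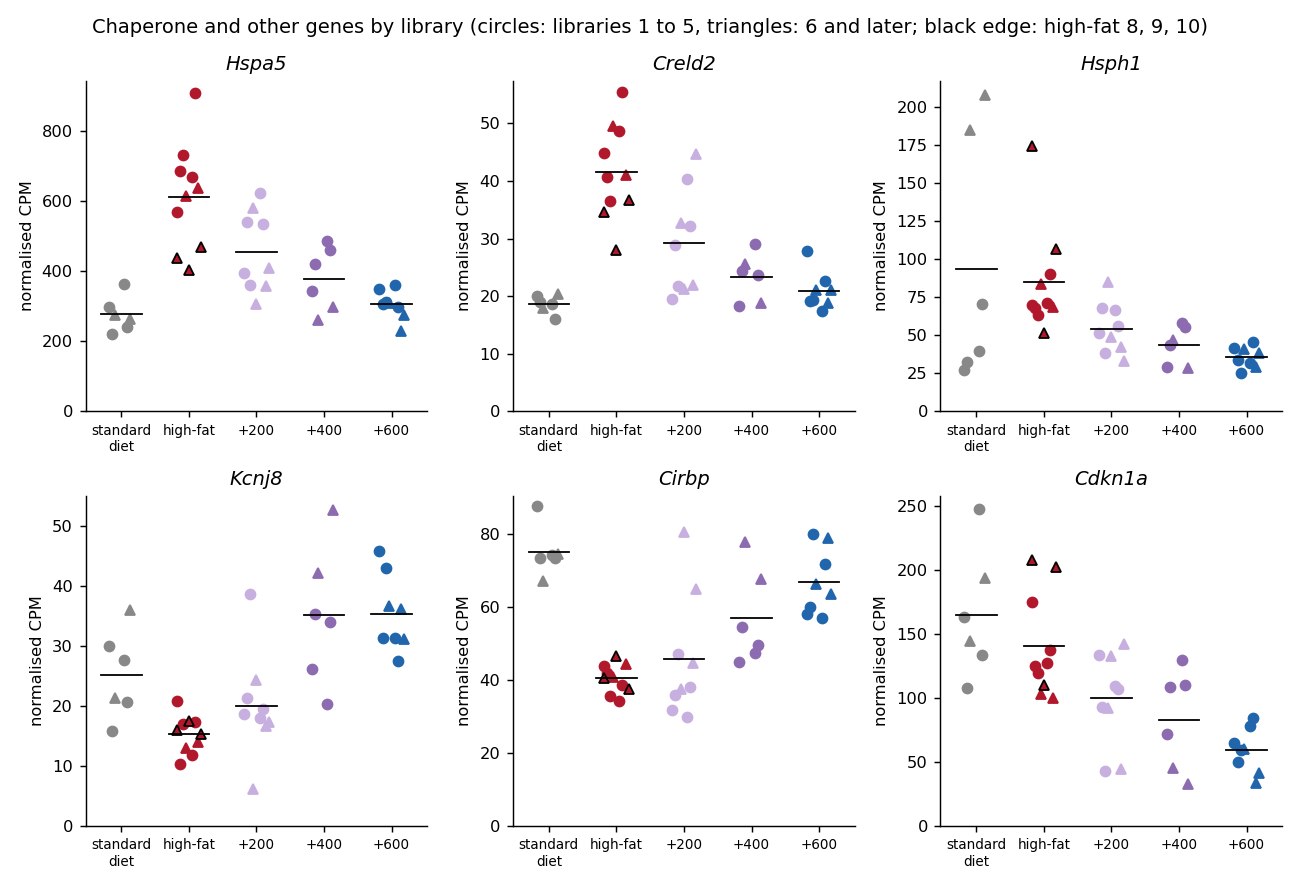
Level of 6 genes in normalised CPM (y) by group (x, as named under each panel, with SZ-A doses in mg/kg/day), 1 point per library with the group mean as a line. Hspa5 with SZ-A 600 runs from 227 to 361 CPM and Kcnj8 from 27.4 to 45.9, in neither case overlapping the high-fat libraries.

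Several genes outside the lists above also separated the groups. Kcnj8 and Abcc9 encode the pore and the sulfonylurea receptor of the vascular type of ATP-sensitive potassium channel, typical of pericytes and smooth muscle. Kcnj8 was at 10.4, 15.6 and 20.8 CPM against 27.4, 33.7 and 45.9, with no overlap, and rose by 1.24 ± 0.13 (adjusted p = 8.21e-05). Abcc9, whose groups overlapped, was at 25.4, 48.8 and 65.4 CPM against 56.9, 71.7 and 104 and rose by 0.84 ± 0.10 (adjusted p = 0.00014). They were at 1.15 and 0.86 with the macrophage term, and in the second set of libraries, at 1.20 and 0.75. Of the 14 smooth muscle and pericyte genes tested these and 2 others rose and none fell (7 rose without high-fat library 8), while the summed level of that list overlapped, at 640 to 1265 CPM against 686 to 1766. Of the 14, 2 rose and 1 fell with the macrophage term.

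Cirbp, the cold-inducible RNA-binding protein, was at 34.2, 40.7 and 46.5 CPM against 56.9, 64.9 and 80.1 and rose by 0.78 ± 0.08 (adjusted p = 8.21e-05). Rrm2b, the p53-inducible ribonucleotide reductase subunit, was at 17.4, 20.5 and 28.1 CPM against 32.2, 37.5 and 42.9 and rose by 0.88 ± 0.10 (adjusted p = 8.21e-05). Cdkn1a (p21), the cell cycle inhibitor and another p53 target, fell, from 99.8, 126 and 208 CPM to 33.8, 59.3 and 84.5, by 1.27 ± 0.20 (adjusted p = 0.000787). None of the 3 overlapped between groups. Chrdl1, a secreted antagonist of bone morphogenetic proteins, was at 40.6, 79.6 and 264 CPM against 270, 327 and 397 and rose by 1.82 ± 0.27 (adjusted p = 0.000664). Its highest high-fat value was in library 9, and libraries 8 to 10 held the 3 highest.

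Among the largest changes by size were genes at low levels. Nxf3, an X-linked relative of an mRNA export factor, was at 0, 0.149 and 1.59 CPM against 0.405, 2.08 and 6.51 and rose by 3.32 ± 0.75 (adjusted p = 0.00519), a call lost with the macrophage term (1.49, adjusted p = 0.0504). Kiss1r, the kisspeptin receptor, was at 2.37, 3.18 and 17.5 CPM against 15.9, 21.1 and 27.8 and rose by 2.21 ± 0.35 (adjusted p = 0.000812). Cck, the gut and brain peptide, fell by 3.30 ± 0.61 (adjusted p = 0.00203) from a median of 1.04 to 0.123 CPM, and Hmga2, a chromatin protein of growing cells, by 3.53 ± 0.81 (adjusted p = 0.00584) from 8.19 to 0.338. The antibody gene Igkv3-2 had the largest fitted fall of the genes named by size, 6.00 ± 1.74 (adjusted p = 0.0182), which was lost without high-fat library 7 and with the macrophage term (-2.93, adjusted p = 0.328). Antibody genes are near copies of each other, and the summed level of 15 B and plasma cell markers ran from 280 to 4014 CPM over the high-fat libraries and from 123 to 467 with SZ-A 600.

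Collagen and other matrix genes fell. Of 16 fibrillar and beaded collagens tested, 13 fell and none rose, with a list median of -1.17. Col1a1, a chain of the main fibrillar collagen, was at 143, 1235 and 2237 CPM against 129, 286 and 573. It fell by 1.97 ± 0.39 (adjusted p = 0.00262), with the groups overlapping through high-fat library 8, at 143 CPM, where the next lowest was 601. Col3a1, its partner in young scar, was at 225, 2769 and 3972 CPM against 205, 459 and 1054 and fell by 2.31 ± 0.42 (adjusted p = 0.00188). Col6a2, a chain of the beaded collagen around adipocytes, fell by 1.29 ± 0.21 (adjusted p = 0.0011).

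Of 25 genes of collagen processing and crosslinking, 18 fell and 1 rose. Bmp1, the protease that trims procollagen, was at 92.2, 126 and 158 CPM against 62.1, 72.3 and 89.1, without overlap, and fell by 0.71 ± 0.11 (adjusted p = 0.000698). Serpinh1 (HSP47), the collagen chaperone of the ER, fell by 0.66 ± 0.10 (adjusted p = 0.000708), and the hydroxylase Plod1 by 0.64 ± 0.11 (adjusted p = 0.00127). Of 27 matricellular and elastic fibre genes 18 fell, among them Vcan (versican) by 1.77 ± 0.29 (adjusted p = 0.000982), Mfap4 by 2.21 ± 0.41 (adjusted p = 0.002) Spp1 (osteopontin) by 3.06 ± 0.63 (adjusted p = 0.00333) and Fbn1 (fibrillin) by 2.14 ± 0.41 (adjusted p = 0.00238), and 2 rose, with Thbs2 (thrombospondin) at 0.68 ± 0.15 (adjusted p = 0.00498). Of 20 matrix proteases and inhibitors 9 fell, with Adamts4, which cleaves versican and aggrecan, at -1.24 ± 0.25 (adjusted p = 0.00279), and 2 rose, the inhibitors Timp3 (0.78 ± 0.18, adjusted p = 0.00549) and Timp4 (1.35 ± 0.42, adjusted p = 0.0248, lost without high-fat library 2, 3 or 4). Among the matricellular genes 9 fell and 1 rose with the macrophage term, 3 proteases and inhibitors fell and 2 rose, and Fbn1 (-0.97, adjusted p = 0.064), Timp3 (0.65, adjusted p = 0.0593) and Timp4 (0.46, adjusted p = 0.171) did not pass.

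The collagens moved alike in both library sets, with list medians of -1.19 and -1.15, and by about the same for their processing genes, at -0.65 and -0.56. With the macrophage term the medians were -0.56 and -0.45, and 6 collagens and 9 processing genes still fell. Col1a1 was then at -0.98 (adjusted p = 0.034) and Serpinh1 at -0.69 (adjusted p = 0.002). Of 18 basement membrane genes 6 fell, with a list median of -0.22, among them the paired chains Col4a1 (-0.77 ± 0.15, adjusted p = 0.00299) and Col4a2 (-0.93 ± 0.17, adjusted p = 0.00194). Without SZ-A 600 library 7, 3 of the 18 fell, as many as with the macrophage term. Over all genes 2159 fell without that library, against 2647 in the main fit.

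Of 30 proliferation genes tested, 28 fell and none rose, with a list median of -1.70. Mki67, the antigen of dividing cells, was at 5.39, 73.0 and 92.2 CPM against 5.65, 12.2 and 30.4 and fell by 2.10 ± 0.44 (adjusted p = 0.00386). The groups overlapped through high-fat libraries 8 and 9, at 5.39 and 18.4 CPM, and library 10, at 31.5, lay just above the highest treated library. Every gene of the list had groups that overlapped. Mybl2, a factor of the S and G2 phases that is not on the list, did not overlap, at 3.57, 5.80 and 12.3 CPM against 0.866, 1.73 and 3.02. It fell by 1.68 ± 0.26 (adjusted p = 0.000705). The list median was -2.01 in the first set, -1.20 in the second and -0.95 with the macrophage term, where 22 of the 30 fell.

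Macrophage genes were lower with SZ-A 600, but unevenly. Of 20 macrophage and monocyte markers 10 fell and none rose, with a median of -1.08, which was -1.41 in the first set and -0.57 in the second. Cd14, the coreceptor for bacterial lipopolysaccharide, was at 25.8, 65.6 and 94.7 CPM against 15.2, 22.8 and 42.6 and fell by 1.28 ± 0.20 (adjusted p = 0.000812). Adgre1 (F4/80) was at 8.03, 500 and 800 CPM against 40.8, 96.8 and 208 and fell by 1.79 ± 0.56 (adjusted p = 0.0257). High-fat libraries 8, 9 and 10 were at 8.03, 116 and 42.1 CPM of it, and the call was lost without high-fat library 6, SZ-A 600 library 3 or SZ-A 600 library 5. Without high-fat library 8 alone 16 of the 20 fell, and without all 3 of the libraries apart 19 fell and Adgre1 was at -2.35. Those 3 libraries were set apart by the summed level of these same markers. The larger changes without them are thus in part fixed by that choice and are no test of it.

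Markers of the resident type fell in 6 of 14 genes, with the scavenger receptor Stab1 at -1.39 ± 0.25 (adjusted p = 0.00186) and the folate receptor Folr2 at -1.96 ± 0.38 (adjusted p = 0.00246), and the list median was -0.61, and -0.83 with the macrophage term. Of 20 genes of lipid-associated macrophages 6 fell and 1 rose, and 14 fell without high-fat library 8. The macrophage term gave 1 that fell and 6 that rose. Trem2, the lipid receptor that marks them, was at 8.00, 409 and 661 CPM against 61.7, 110 and 360 and did not pass (-1.05 ± 0.52, adjusted p = 0.131). With the macrophage term its value was 0.90 (adjusted p = 0.0451). Itgax (CD11c) did not pass either (-1.07 ± 0.54, adjusted p = 0.133).

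Among inflammatory cytokines and inflammasome genes 9 of 27 fell and 1 rose, with 14 lower without high-fat library 8 and 17 without SZ-A 600 library 8, while 4 fell and 1 rose with the macrophage term. Over all genes 3767 fell without high-fat library 8 and 3179 without SZ-A 600 library 8, against 2647 in the main fit. Ccl2, the monocyte attractant, was at 8.01, 22.7 and 43.0 CPM against 2.83, 5.27 and 12.2 and fell by 1.85 ± 0.31 (adjusted p = 0.00129). It fell by 1.42 with the macrophage term (adjusted p = 0.00429). Tnf did not pass (-0.99 ± 0.47, adjusted p = 0.116). Of 30 lysosomal genes 18 fell, with a median of -0.69 that was -0.06 with the macrophage term, and 11 fell without high-fat library 4 or SZ-A 600 library 5. Over all genes 2025 fell without that high-fat library and 2121 without that SZ-A 600 library. Of 10 MHC class II genes 8 fell, with a median of -0.91 that was -1.15 in the first set, -0.53 in the second and -0.32 with that term, where 1 fell. Interferon response genes fell in 10 of 24, with a median of -0.41 that was -0.53 with that term.

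**Figure D4:**
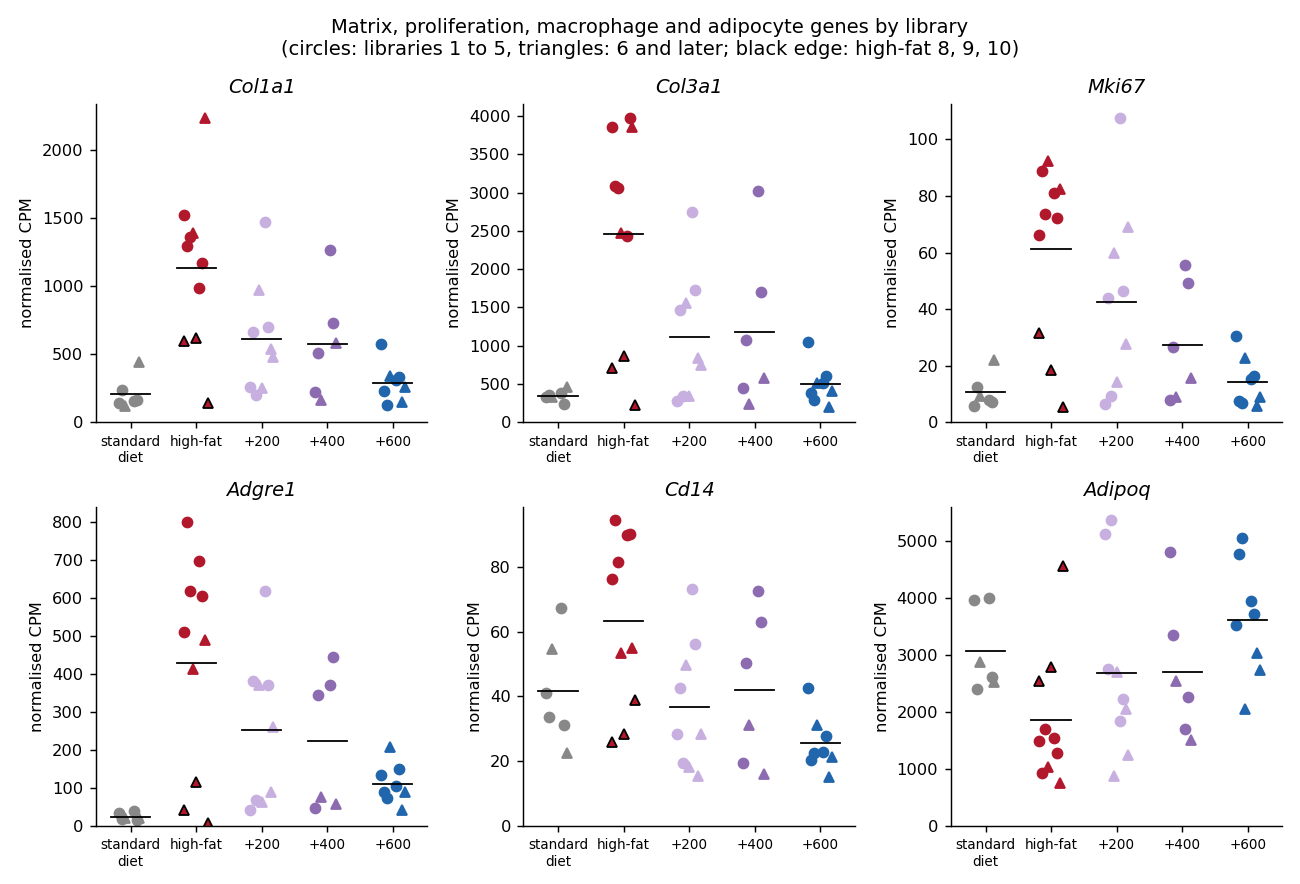
Level of 6 matrix, proliferation, macrophage and adipocyte genes in normalised CPM (y) by group (x, as named under each panel, with SZ-A doses in mg/kg/day), 1 point per library with the group mean as a line. High-fat libraries 8, 9 and 10, edged in black, are the low Adgre1 values at 8.03, 116 and 42.1 CPM and reach into the range of the SZ-A 600 libraries in Col3a1.

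Adipocyte genes rose, and here too the library sets differed in size. Of 25 mature adipocyte genes 14 rose and none fell, with a median of 0.83, which was 1.27 in the first set, 0.17 in the second and 0.24 with the macrophage term. Without any 1 of high-fat libraries 1, 2, 3 and 4 or SZ-A 600 libraries 3 and 5, 9 rose. Over all genes those fits gave, in that order, 1839, 1955, 1816, 1710, 1556 and 1564 that rose, against 2446 in the main fit. The fit with the macrophage term gave 7 that rose and 1 that fell, and without high-fat libraries 8, 9 and 10, 20 rose and 1 fell. Adipocyte markers also set those 3 libraries apart, so values of adipocyte genes without them are in part fixed by that choice. Adipoq (adiponectin) was at 755, 1511 and 4559 CPM against 2054, 3625 and 5061 and rose by 1.04 ± 0.33 (adjusted p = 0.0271). High-fat libraries 8, 9 and 10 held its 3 highest high-fat values, and its call was lost without any 1 of those high-fat libraries 1 to 4 or SZ-A 600 libraries 3 and 5, and with the macrophage term (0.33, adjusted p = 0.222). Plin1, the coat of the lipid droplet, rose by 0.95 ± 0.20 (adjusted p = 0.004), and Acvr1c (ALK7), an activin-type receptor of fat cells, by 1.58 ± 0.28 (adjusted p = 0.00142). Pparg, the master factor of adipocytes, was at 0.08 ± 0.25 (adjusted p = 0.826), 0.50 without the 3 libraries apart (adjusted p = 0.0008) and -0.46 with the macrophage term (adjusted p = 0.0196). Of 11 genes of adipocyte expansion 5 rose, but Sfrp5, a Wnt antagonist (0.56 ± 0.23, adjusted p = 0.0714), and Mest (0.14 ± 0.25, adjusted p = 0.696) did not pass. Of the 11, 1 rose with the macrophage term.

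Branched-chain amino acid breakdown rose in 14 of 23 genes, with none lower and a median of 0.67. Dbt, a core subunit of the rate-limiting dehydrogenase, was at 26.2, 34.5 and 73.2 CPM against 51.8, 78.2 and 96.3 and rose by 1.02 ± 0.18 (adjusted p = 0.00171). Aldh6a1, a valine pathway enzyme, rose by 1.19 ± 0.27 (adjusted p = 0.00545), and Ppm1k, the phosphatase that activates the dehydrogenase, by 0.77 ± 0.16 (adjusted p = 0.00329). Their median was 0.87 in the first set, 0.21 in the second and 0.21 with the macrophage term, where 3 of the 23 rose. Without high-fat libraries 8, 9 and 10, 22 rose and 1 fell.

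Of 22 insulin signalling and glucose uptake genes 9 rose and 4 fell, where 13.9% of all genes rose and 15% fell. Irs1, the first substrate of the insulin receptor, was at 3.91, 9.91 and 19.0 CPM against 11.6, 21.4 and 35.5 and rose by 1.20 ± 0.20 (adjusted p = 0.00123). It was at 1.33 in the first set and 1.00 in the second. Insr, the receptor, rose by 0.75 ± 0.15 (adjusted p = 0.00304), Slc2a4, the insulin-responsive glucose carrier GLUT4, by 1.02 ± 0.25 (adjusted p = 0.00748) and Pde3b, the phosphodiesterase through which insulin restrains lipolysis, by 1.13 ± 0.26 (adjusted p = 0.00553). Over the list the median was 0.38, with 0.63 in the first set, 0.14 in the second and 0.11 with the macrophage term, where 4 of the 22 rose and none fell. Without high-fat libraries 8, 9 and 10, 14 rose and 5 fell.

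Of 18 genes of de novo lipogenesis 5 rose and 4 fell, with a list median of -0.05, where 13.9% of all genes rose and 15% fell. None rose and 2 fell with the macrophage term, and without high-fat libraries 8, 9 and 10, 6 rose and 6 fell. Scd1, which desaturates fatty acids, was at 8499, 11902 and 46127 CPM against 28606, 39440 and 75013 and rose by 1.44 ± 0.39 (adjusted p = 0.013), but not with the macrophage term (0.58, adjusted p = 0.153). Fasn, the fatty acid synthase, did not pass (-0.56 ± 0.22, adjusted p = 0.0598). Of 22 cholesterol synthesis genes 9 fell and 3 rose. Nsdhl, a late enzyme of the pathway, was at 21.7, 37.3 and 47.6 CPM against 14.2, 20.3 and 25.4 and fell by 0.83 ± 0.10 (adjusted p = 0.000161), and Cyp51 and Mvd fell by 0.64 ± 0.10 (adjusted p = 0.000812) and 0.77 ± 0.13 (adjusted p = 0.00124). Hmgcs1, an early enzyme, rose by 0.82 ± 0.18 (adjusted p = 0.00519), but not with the macrophage term (0.52, adjusted p = 0.0781). The median of the cholesterol list was -0.60 in the first set, -0.02 in the second and 0.02 with that term, where 4 fell and 1 rose, and 14 fell without high-fat libraries 8, 9 and 10. Leptin (Lep), the hormone that tracks fat mass, was at 710, 1710 and 2725 CPM against 517, 1244 and 2094 and did not pass (-0.40 ± 0.21, adjusted p = 0.152).

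The title of the series speaks of browning of white fat, so thermogenic genes were read in full. Of 22 tested of 28 listed, 5 rose and 3 fell, with a list median of 0.00, where 13.9% of all genes rose and 15% fell. Without high-fat library 4, SZ-A 600 library 2 or SZ-A 600 library 3, 3 rose, and without high-fat library 3 or 5, 1 fell. Over all genes those fits gave, in that order, 1710, 1699 and 1556 that rose, and 2027 and 2328 that fell. The macrophage term left 2 that rose (Prdm16 and Ebf2) and none that fell, and without high-fat libraries 8, 9 and 10, 7 rose and 6 fell. Over all genes 27.6% rose and 26.5% fell without those libraries. Ucp1, the uncoupling protein of brown fat, was at 0, 0.258 and 0.869 CPM in the high-fat libraries and at 0.0475, 0.271 and 0.640 with SZ-A 600 (0.26 ± 0.61, adjusted p = 0.766), with groups that overlapped throughout. Cidea, a droplet protein of brown and beige fat, rose by 0.85 ± 0.29 (adjusted p = 0.037), a call lost without any 1 of 10 libraries. Prdm16, the brown fat regulator, was at 5.44, 9.74 and 12.7 CPM against 9.35, 12.1 and 14.9. It rose by 0.50 ± 0.12 (adjusted p = 0.00857), a call lost without library order as a term and with the replicate number as a block. Ebf2, a factor of brown and beige precursors, rose by 0.79 ± 0.15 (adjusted p = 0.00226). Adrb1, a beta-adrenergic receptor, rose by 0.93 ± 0.26 (adjusted p = 0.0153), a call lost with the macrophage term (0.65, adjusted p = 0.13), without library order as a term, with SZ-A 600 library 6 and in the fit over all 4 high-fat groups. Kcnk3, a potassium channel, rose by 0.41 ± 0.13 (adjusted p = 0.0251), a call lost without high-fat library 4 or SZ-A 600 library 2, 3 or 4.

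Ppargc1a, the coactivator of mitochondrial genes, was at 0.738, 2.91 and 4.69 CPM against 2.21, 4.61 and 5.15 and did not pass (0.66 ± 0.25, adjusted p = 0.0525). Dio2 (-0.91 ± 0.62, adjusted p = 0.27), Cox8b (-0.27 ± 0.28, adjusted p = 0.472) and Adrb3 (1.46 ± 0.64, adjusted p = 0.0904) did not pass either. Elovl3, a cold-induced elongase, fell by 1.75 ± 0.52 (adjusted p = 0.0199) at levels of at most 1.02 CPM, and Tmem26, a beige surface marker, by 2.69 ± 0.59 (adjusted p = 0.00474). Of 36 nuclear genes of the respiratory chain 3 rose and none fell, with a median of 0.24 that was 0.37 in the first set, 0.02 in the second and -0.06 with the macrophage term. Without high-fat library 8, 23 rose, without SZ-A 600 library 3 or 7, 1 rose, and without high-fat libraries 8, 9 and 10, 33 rose. Over all genes those fits gave 3620, 1556 or 1631, and 4818 that rose, against 2446 in the main fit.

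**Figure D5:**
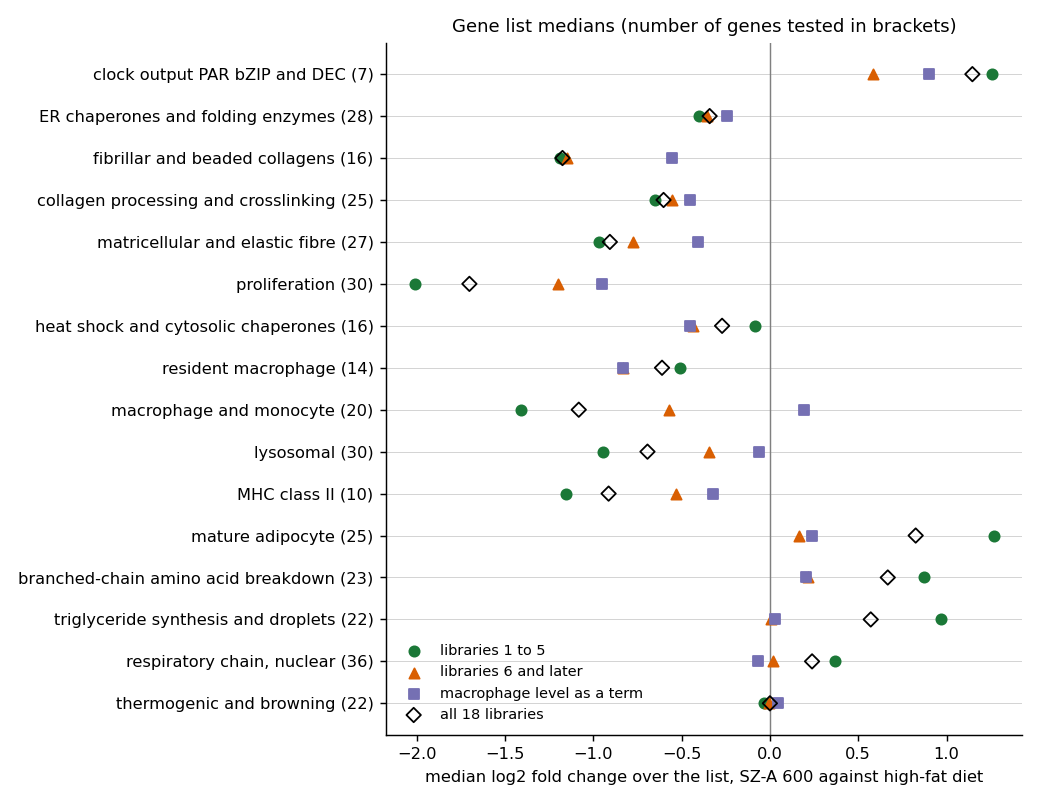
Median log2 fold change, SZ-A 600 against high-fat diet, of 16 gene lists (rows) in libraries 1 to 5, in libraries 6 and later, with macrophage level as a term and in all 18 libraries. The collagens lie at -1.19 and -1.15 in the library sets, whereas mature adipocyte genes lie at 1.27 and 0.17 and macrophage and monocyte markers at -1.41 and -0.57.

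The other doses give the scale of the 600 mg/kg/day values. Against SZ-A 200, in a fit over the 33 libraries of the 4 high-fat groups, 6 of 19607 genes passed (0.0306%), and 2562 had an unadjusted p under 0.05 against 980 if nothing differed. Among the 6 were the clock genes Arntl (-0.95 ± 0.17, adjusted p = 0.0405), Nfil3 (-1.35 ± 0.26, adjusted p = 0.0405) and Dbp (1.05 ± 0.21, adjusted p = 0.0473), and Rasl12 (0.79, adjusted p = 0.0405). DESeq2 called 128 genes, and a fit on the libraries of those 2 doses alone called none. Leaving out 1 library gave 0 to 24 genes. None passed without SZ-A 200 library 1, 2, 7 or 8, or without SZ-A 600 library 1, 2, 3, 4, 7 or 9. The fit without library order as a term also called none. Against SZ-A 400 none of 19607 genes passed by edgeR or DESeq2 (0%), with 811 at an unadjusted p under 0.05. Mean Hspa5 was 611 CPM on the high-fat diet and 455, 377 and 304 at the 3 doses, with 276 on the standard diet. Mean Col1a1 was 1134 CPM and then 615, 577 and 291, with 211 on the standard diet. No trend over dose was tested.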

How the data were processed

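Poly(A)-selected, strand-marked RNA of whole tissue was sequenced as 150-base read pairs, per the labels' protocols. The authors deposited raw counts per gene and FPKM values (fragments scaled to gene length and library size), and the deposited FPKM served only in alternatives, as log2(FPKM + 1) and log2(FPKM + 0.1). The submitters' processing notes name the build mm10, and no source used here names the aligner or counter. Of 52071 genes matched to the GRCm38 annotation, 2.86% shared a start or end with the file, so coordinates of the file are not printed.

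Counts were fitted with edgeR 4.0.16 (R 4.3.3) by the quasi-likelihood test with TMM factors, filterByExpr with a minimum count of 10, group and library set (numbers 1 to 5 against later) as terms, and Benjamini-Hochberg adjustment over all genes tested. The script was tested on simulated data. Alternatives used DESeq2 1.42.0 and limma 3.58.1. Normalised CPM were set over 39 libraries, without the 4 that held RNA of other tissue.

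No 2 libraries were duplicates, the highest correlation of log2 CPM being 0.981. The libraries and gene lists were chosen with earlier results of these data known. Named genes were the largest and lowest-p changes held by at least 80% of libraries, 23 fixed genes and up to 4 members per list and direction. All 23 clock genes, the ER and thermogenic lists, genes without overlap, Mki67, Hspa1a and Hspa1b were added after their values were seen. Some genes are not reported here. Figures were drawn with matplotlib.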

Additional observations from a re-analysis of the deposited data

Results flagged for a closer look

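In 10 of 232 groups of values of the genes followed singly, 1 library lay farther from its neighbours than Dixon's test at 95% allows. Chance alone flags about 1 group in 20, and no cause was tested. High-fat library 8 was the lowest of its group in 5 of them, with 1.74 normalised CPM of Cdk1 (next 6.70), 143 of Col1a1 (next 601), 0 of Hmga2 (next 1.93), 3.65 of Slc7a5 (next 10.1) and 0.299 of Tnf (next 1.45). High-fat library 1 was low for Ppargc1a, at 0.738 CPM (next 1.87). In the SZ-A 600 group, library 1 was low for Clock, at 52.4 CPM (next 66.6), and for Kcnk3, at 34.0 (next 46.6). Library 7 was low for Hsp90b1, at 169 CPM (next 217), and library 8 for Hspb8, at 61.2 (next 100.2).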

How the results depend on the processing

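Of 2446 genes higher and 2647 lower, limma voom with quality weights gave 5305 and 4795, a fit without library order 831 and 1322, an adjusted p under 0.01 813 and 988, the first library set 3732 and 3714, the second 0 and 0, the comparison without high-fat libraries 8 to 10 4818 and 4628, and the macrophage term 747 and 826. No filter beyond 1 count gave 1443 higher. Leaving out 1 library gave 1556 to 3620 higher and 2025 to 3767 lower. With the replicate number as a block, 907 were higher and 646 lower, but the correlations of same-numbered libraries ran from -0.53 to 0.15, and none was closest to its own number. Against SZ-A 200, in place of 6 genes, DESeq2 gave 128, no filter 3, libraries with other tissue RNA 10, and the fits without library order or on the 2 doses alone 0, and leaving out 1 library 0 to 24. Against SZ-A 400, libraries with other tissue RNA gave 7 in place of 0. DESeq2 gave 7 genes for the difference between library sets in place of 0. The macrophage term reversed Adgre1 (0.25), Pparg (-0.46) and Trem2 (0.90). It is made from macrophage and monocyte markers, so a lost or turned change is in part built in for such markers. The cause was not tested for any of these. Of 95 genes followed singly that passed, 86 lost no call on leaving out 1 library, though Elovl3 among them was tested in only 13 of the 18 such fits. None passed in the second set alone, which holds 3 treated libraries, where 94 were tested and Elovl3 was not. With the macrophage term 22 did not pass and 1 turned.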
